A study of Homo sapiens with 6 samples.

Results

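The BH3-only genes encode the stress sensors of the mitochondrial cell death pathway. They were taken as the 8 listed genes BID, BIK, BAD, BBC3, PMAIP1, BCL2L11, BMF and HRK, and all 8 were matched by symbol among the 60605 gene identifiers of the count table. RNA sequencing was done on H69AR, an established line of small cell lung cancer that was derived from NCI-H69 by selection in doxorubicin. One group of 3 libraries came from H69AR cells given 70 nM Supinoxin (RX-5902), a small molecule reported to target the helicase DDX5, and the other group of 3 came from H69AR cells with no drug treatment. Both groups carry WT in their genotype label, both are the same cell line, and neither the time on the drug nor a vehicle is stated in the labels. Whether replicates came from separate cultures is not labelled. The p-values therefore measure only how these libraries vary, which may be technical.

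BH3-only proteins share a short helix, the BH3 domain, through which they bind other members of the BCL2 family. They occupy survival proteins such as BCL2, BCL-XL and MCL1, and some of them also switch on the effectors BAX and BAK, which open the outer mitochondrial membrane and release cytochrome c. Cells control them at the level of the gene, as with BBC3 and PMAIP1, which are transcribed under stress, and at the level of the protein, as with BID, which is cut by caspases, and BAD, which is held in the cytosol by 14-3-3 proteins.

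The stretch that defines the family is shown here as coding sequence, because it is what the members have in common while their transcripts moved in different directions. Each line gives 48 coding bases 5′ to 3′ from the canonical GENCODE 44 transcript (GRCh38), with the 6 codons of the BH3 core in capitals. A core was found by translating the coding sequence and searching for leucine, then any 3 residues, then glycine, alanine or serine, then aspartate.
BID, chr22:17739412-17739459, minus strand: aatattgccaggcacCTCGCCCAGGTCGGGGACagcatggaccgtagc
BIK, chr22:43127701-43127748, plus strand: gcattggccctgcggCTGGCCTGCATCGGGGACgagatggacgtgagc
BAD, chr11:64271619-64271666, minus strand: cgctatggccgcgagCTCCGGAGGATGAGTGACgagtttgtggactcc
BBC3, chr19:47226576-47226623, minus strand: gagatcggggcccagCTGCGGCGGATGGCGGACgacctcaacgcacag
PMAIP1, chr18:59902658-59902705, plus strand: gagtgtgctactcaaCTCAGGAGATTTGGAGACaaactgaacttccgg
BCL2L11, chr2:111150088-111150135, plus strand: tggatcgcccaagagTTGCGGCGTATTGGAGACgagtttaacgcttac
BMF, chr15:40104192-40104239, minus strand: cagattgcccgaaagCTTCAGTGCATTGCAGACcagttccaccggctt
HRK, chr12:116881167-116881214, minus strand: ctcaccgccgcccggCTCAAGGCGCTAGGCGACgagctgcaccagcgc

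The search found 1 match in each member except BID, which had 2, of which the one with glycine is shown. Over the 28 pairs of members, 7 to 13 of the 18 core bases were identical. The pairs with 13 identical bases were BID with BIK, BBC3 with BCL2L11 and BAD with BBC3, and the pair with 7 was BID with BMF. The core lay in the second coding exon of 6 members, in the third of BID and in the only coding exon of HRK. Coding sequences ran from 54 codons in PMAIP1 to 198 in BCL2L11.

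With Supinoxin, transcripts of BID, BIK, BAD and BBC3 fell 1.97-fold to 2.58-fold and PMAIP1 rose 1.44-fold, while BMF and HRK did not pass the test. BCL2L11 was listed at 0 and was not tested. Of the 8 members 7 passed the filter on low counts, and of these 4 were lower and 1 was higher (edgeR quasi-likelihood test, Benjamini-Hochberg adjustment over all tested genes, threshold 0.05). Over all 15947 tested genes 25.2% were lower, 23.4% were higher and 48.6% were called in either direction, so almost as many genes were called as were not, and the members' counts are a description beside that background. The median log2 fold change of the 7 members was -0.98 and that of all tested genes was 0.00. Values below are CPM, a gene's counts relative to the library's total after TMM scaling, and log2 fold changes are Supinoxin over untreated, each with its standard error (SE) from the fit.

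The libraries held 30136963 to 39402804 counts, and 1 CPM stood for 30.7 to 38.2 counts. Untreated replicate 1 stood apart from the other untreated libraries, so values without it are given beside the results on which it bears most. The labels name the cells epithelial. The epithelial keratin gene KRT8 stood at 165 CPM in untreated cells (225, 143 and 126 by library) and at 112 CPM with Supinoxin. KRT8 and KRT18 did not pass (edgeR adjusted p = 0.0507 and 0.512), and CDH1 (E-cadherin) had 17 counts over all 6 libraries. EPCAM, the 1 of 3 tested epithelial markers that was called, fell from 10.3 to 1.22 CPM. Of 7 neuroendocrine markers 3 fell, NEUROD1 was at 0, and their summed level ran from 36.3 to 39.5 CPM with Supinoxin and from 50.8 to 82.3 without. The non-neuroendocrine markers YAP1 and REST rose, POU2F3 had 2 counts in all, and the summed level of these 3 ran from 115 to 128 CPM against 49.5 to 67.2. Summed leukocyte markers lay between 0.58 and 1.23 CPM in all libraries, with CD68 at 0. Of the 2 that were tested CD3E was lower and PTPRC did not pass (edgeR adjusted p = 0.00108 and 0.0849). CD3E had 1, 0 and 0 counts with Supinoxin and 18, 12 and 12 without. Summed stromal markers ran from 4520 to 4670 CPM against 1760 to 2290, nearly all of it from the collagen gene COL1A2, with ACTA2 at 0. The part of these shifts in the results for BH3-only genes was not tested, and in bulk RNA a change in every cell and a change in the mix of cells cannot be told apart.

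**Figure D1:**
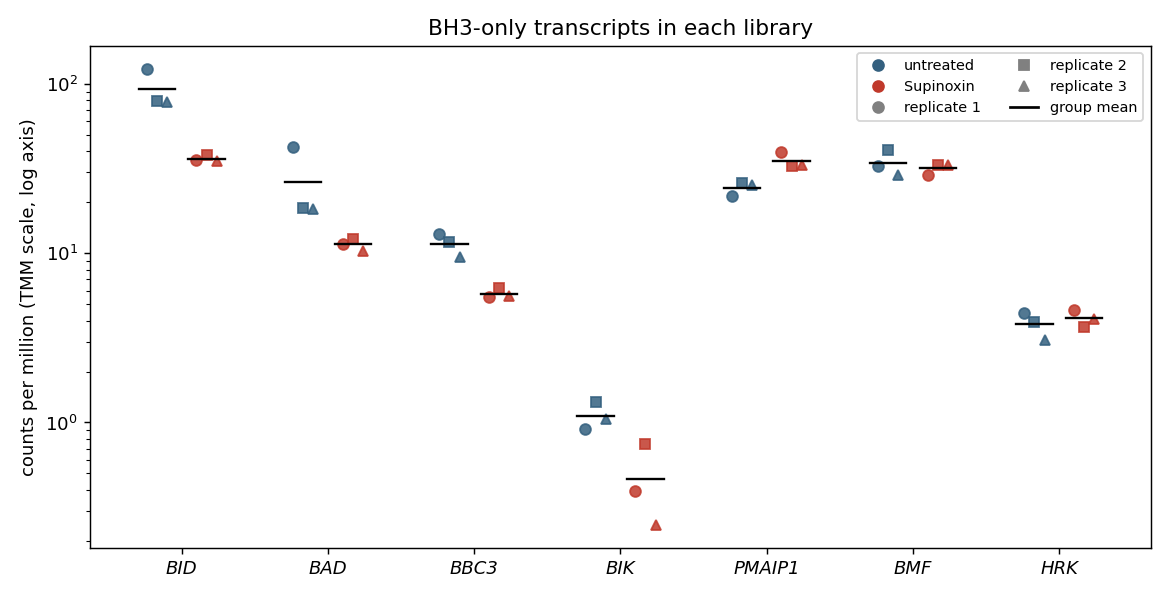
CPM on a log axis for the 7 BH3-only genes with counts, one point per library, with colour for the group, marker shape for the replicate and a black line for the group mean. For BID, BAD, BBC3 and BIK every Supinoxin library lies below every untreated one, for PMAIP1 every Supinoxin library lies above, and for BMF and HRK the groups overlap.

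BID (ENSG00000015475, chromosome 22, 17734138 to 17774770, minus strand, GRCh38) encodes the protein that carries the signal of death receptors to mitochondria once caspase-8 has cut it. It stood at 35.5, 38.0 and 35.0 CPM in the Supinoxin libraries and at 123, 79.5 and 77.8 CPM in the untreated ones. Every Supinoxin library was below every untreated library, and untreated replicate 1 was the highest. The groups likewise did not overlap for 5 of the 7 tested members, beside 62.4% of all tested genes. The means were 36.2 ± 1.59 and 93.4 ± 25.6 CPM (SD, n = 3 each), a fall by 1.37 on the log2 scale (SE 0.19, 95% interval -1.79 to -0.95, edgeR adjusted p = 0.00063). BID was the most abundant member in untreated cells, with 43.8% to 51.5% of the summed CPM of the members against 28.2% to 30.0% in Supinoxin libraries. Without untreated replicate 1 the log2 fold change was -1.11.

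BAD (ENSG00000002330, chromosome 11, 64269830 to 64284704, minus strand) encodes the member that binds BCL2 and BCL-XL unless survival kinases phosphorylate it. Its levels were 11.4, 12.1 and 10.3 CPM with Supinoxin and 42.6, 18.6 and 18.2 CPM without. The groups did not overlap, and untreated replicate 1 lay 1.21 (log2) above the mean of the other untreated libraries. BAD fell by 1.23 on the log2 scale (SE 0.31, 95% interval -1.92 to -0.53, edgeR adjusted p = 0.00983). The fall was -0.69 without untreated replicate 1, and -0.53 when trends with exonic length and GC content were removed from each library (edgeR adjusted p = 0.000682 and 0.012; 13 alternatives spanned 0.000378 to 0.0354). Of the exonic bases of BAD 23.7% are shared with GPR137 on the opposite strand, whose log2 fold change was -0.25 (edgeR adjusted p = 0.42), and no source used here states whether counting was stranded.

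BBC3 (ENSG00000105327, chromosome 19, 47220822 to 47232766, minus strand) encodes PUMA, a member that binds all of the main survival proteins. It stood at 5.49, 6.26 and 5.57 CPM with Supinoxin and at 13.0, 11.6 and 9.55 CPM without. The groups were apart, with the lowest untreated library above the highest Supinoxin library. The means of 5.77 ± 0.421 and 11.4 ± 1.72 CPM (SD, n = 3 each) gave a 1.97-fold fall (log2 -0.98, SE 0.17, edgeR adjusted p = 0.00161). After length and GC trends were removed the value was -0.41 and did not pass (edgeR adjusted p = 0.0546, the highest of 13 alternatives, which began at 1.83e-06). BBC3 and BAD had the highest GC content among the members, at 69.7% and 66.3% of the longest transcript, and PMAIP1 the lowest at 36.7%.

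BIK (ENSG00000100290, chromosome 22, 43110750 to 43129712, plus strand) encodes a membrane-anchored member that sits largely at the endoplasmic reticulum. It was counted thinly, with 15, 28 and 9 reads in the Supinoxin libraries and 31, 46 and 32 in the untreated ones. In CPM these were 0.392, 0.743 and 0.248 against 0.918, 1.32 and 1.04, so the groups did not overlap but came close. BIK fell 2.36-fold (log2 -1.24, SE 0.40, 95% interval -2.14 to -0.34, edgeR adjusted p = 0.0294). The call did not hold without Supinoxin replicate 1 or 3 or without untreated replicate 2 (edgeR adjusted p = 0.101, 0.102 and 0.0994), with library size alone (0.0507) or with length and GC trends removed (0.0514), and 12 alternatives spanned 0.0139 to 0.102.

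PMAIP1 (ENSG00000141682, chromosome 18, 59899996 to 59904305, plus strand) encodes NOXA, which binds mainly MCL1. It was the single member that rose, at 39.4, 32.9 and 33.1 CPM with Supinoxin and 21.9, 26.0 and 25.1 CPM without. Every Supinoxin library was above every untreated one, and Supinoxin replicate 1 was the highest. The rise was 1.44-fold (log2 0.53, SE 0.13, 95% interval 0.23 to 0.83, edgeR adjusted p = 0.0105). Without Supinoxin replicate 1 the value was 0.44 and did not pass (edgeR adjusted p = 0.07; 13 alternatives spanned 0.000553 to 0.07).

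The 250 bases before the RefSeq start of PMAIP1 (GRCh38.p14, chr18:59899746-59899995, plus strand) are shown as the promoter of the member that rose, 5′ to 3′, with a match to the cyclic AMP response core TGACG, here on the reverse strand, in capitals.
PMAIP1 promoter: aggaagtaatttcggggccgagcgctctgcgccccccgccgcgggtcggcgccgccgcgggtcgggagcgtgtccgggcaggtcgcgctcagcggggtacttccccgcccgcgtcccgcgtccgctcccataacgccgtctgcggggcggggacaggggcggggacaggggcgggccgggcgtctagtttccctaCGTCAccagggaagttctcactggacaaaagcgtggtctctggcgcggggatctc

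Promoter windows were given for 7 members and 13 starts, with 5 starts for BID. Searched on both strands, TGACG was found before the starts of PMAIP1, HRK and BAD and before 1 of 2 starts of BMF, and 21.2% of 35114 RefSeq windows of that length hold it. The hypoxia response core ACGTG was found before BBC3 and before 2 of 5 starts of BID, whose windows share that site, and in 18.5% of all windows. Each of these matches reads CACGTG and so counts on both strands. The GC box GGGCGG was found before every start of PMAIP1, BAD, HRK and BCL2L11, before 4 of 5 starts of BID and 1 of 2 of BMF, but not before BBC3, and 42.6% of all windows hold it. No TTTNGCGC (the E2F site) was found in any member's window, against 1.51% of all windows, which says only that these letters are not in these 250 bases.

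BMF (ENSG00000104081, chromosome 15, 40087890 to 40108892, minus strand) encodes a member that is tethered to the cytoskeleton through a dynein light chain. Its levels were 29.1, 33.1 and 33.3 CPM with Supinoxin and 32.8, 40.7 and 29.0 CPM without. The groups overlapped, and the log2 fold change was -0.10 (SE 0.15, 95% interval -0.44 to 0.24, edgeR adjusted p = 0.597). The sign changed under scaling by library size (0.035) and without untreated replicate 2 (0.049). Its antisense gene BMF-AS1, which shares 8.5% of its exonic bases, was listed at 0.

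HRK (ENSG00000135116, chromosome 12, 116856144 to 116881441, minus strand), known for its role in neuronal death, encodes a member that binds BCL-XL. It stood at 4.63, 3.66 and 4.11 CPM with Supinoxin and 4.41, 3.90 and 3.06 CPM without, so that the groups overlapped. The log2 fold change was 0.12 (SE 0.20, 95% interval -0.32 to 0.57, edgeR adjusted p = 0.627). Its sign changed without untreated replicate 3 (-0.01) and after length and GC trends were removed (-0.06).

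BCL2L11 (ENSG00000153094, chromosome 2, 111119378 to 111168444, plus strand) encodes BIM, a strong activator of BAX and BAK. It was listed at 0 counts in all 6 libraries and has no test. A listed 0 was not read as silence, because RPS4X and SDHA, which dividing cells use, are also at 0 in this table, and 33729 identifiers have no count in any library. None of its exonic bases overlap another gene on the same strand and 10.8% overlap MIR4435-2HG on the opposite strand. That noncoding RNA had 1263, 1186 and 1154 counts with Supinoxin and 399, 473 and 509 without (log2 fold change 1.20, edgeR adjusted p = 0.000431), and whether it took counts from BCL2L11 was not tested.

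**Figure D2:**
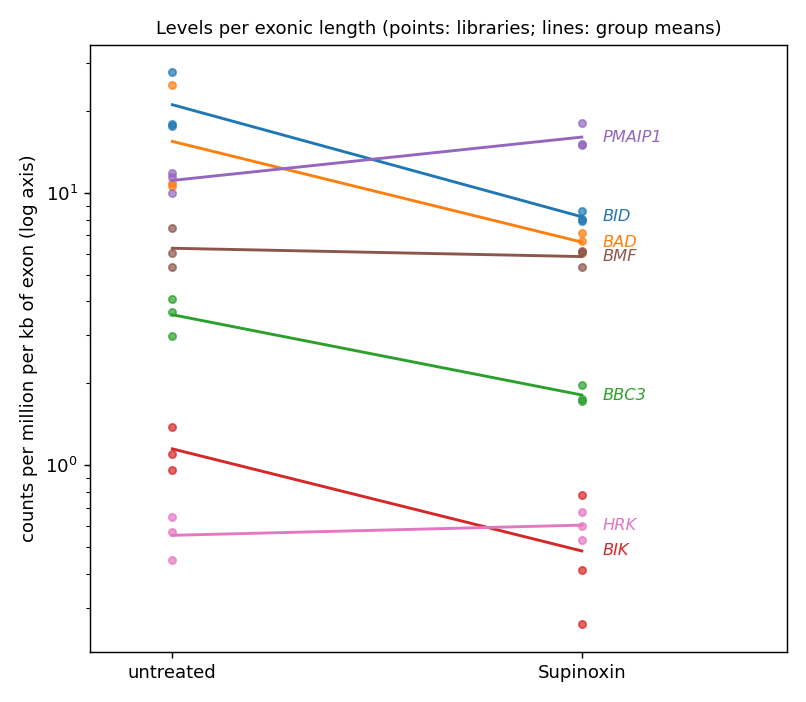
CPM per kb of exon on a log axis for the 7 BH3-only genes with counts in untreated and Supinoxin cells, with points for libraries and lines joining group means. PMAIP1 goes from the third place (the second without untreated replicate 1) to the first, BAD comes down to the level of BMF, and BID stays just above both.

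Levels were compared between genes per kb of exon, summed over all annotated exons of the gene. In untreated cells the order of mean levels was BID (21.1 CPM per kb), BAD (15.5), PMAIP1 (11.1), BMF (6.27), BBC3 (3.58), BIK (1.15) and HRK (0.553). The ranges of BID and BAD overlapped there, as did those of BAD and PMAIP1. Within each untreated library BID stood above BAD, at 27.8, 18.0 and 17.6 against 25.0, 10.9 and 10.6 CPM per kb. BAD stood above PMAIP1 in untreated replicate 1 and below it in the other untreated libraries, and without that replicate the order began with BID (17.8), PMAIP1 (11.7) and BAD (10.8). With Supinoxin the order was PMAIP1 (16.1), BID (8.19), BAD (6.61), BMF (5.85), BBC3 (1.81), HRK (0.603) and BIK (0.485). Here BAD and BMF overlapped, as did HRK and BIK. PMAIP1 thus stood above every other member in each Supinoxin library, at 15.0 to 18.0 CPM per kb against 7.93 to 8.60 for BID, whereas in each untreated library it lay below BID. Its share of the members' summed CPM was 25.9% to 31.3% with Supinoxin and 9.19% to 15.3% without. The summed CPM of the members was 126, 127 and 122 with Supinoxin and 239, 182 and 164 without. BID had the largest share of that sum in every library but Supinoxin replicate 1, where PMAIP1 had 31.3% and BID 28.2%.

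The members differed in how untreated replicate 1 stood to the mean of the other untreated libraries. It was above by 1.21 for BAD, 0.64 for BID, 0.35 for HRK and 0.30 for BBC3, and below by a log2 difference of -0.07 for BMF, -0.22 for PMAIP1 and -0.35 for BIK. It was the highest library for 3 of the 4 members that fell. Among all genes called lower it was the highest library for 67.8%, so 3 of 4 is near the background. The 4 falls and the rise of PMAIP1 kept their direction and passed the threshold without that library.

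**Figure D3:**
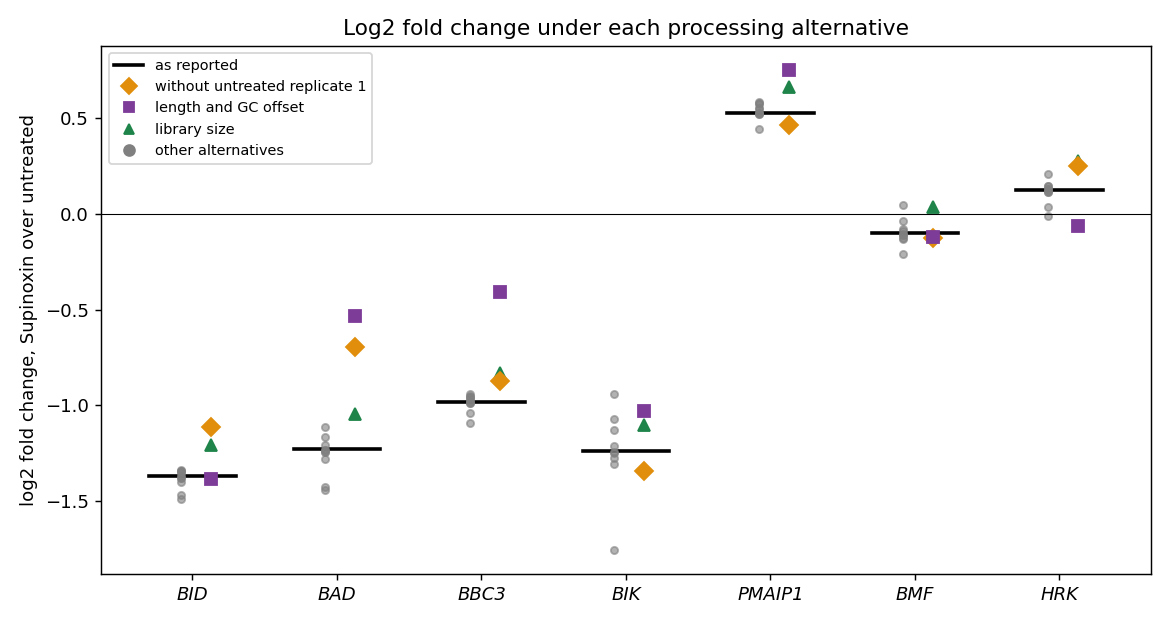
Log2 fold change of the 7 tested BH3-only genes as reported (black bar) and under each processing alternative (markers), Supinoxin over untreated. BID lies between -1.49 and -1.11 throughout, BAD and BBC3 come closest to 0 once length and GC trends are removed, at -0.53 and -0.41, and BMF and HRK lie on both sides of 0.

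The genes whose proteins BH3-only proteins bind did not move as one group. Among survival genes 2 of 4 tested rose and the other 2 did not pass (median log2 0.45). The share called was 50%, beside 48.6% of all tested genes. MCL1, the main partner of NOXA, stood at 327 ± 16.1 CPM with Supinoxin and 202 ± 15.7 without (log2 0.69, SE 0.13, edgeR adjusted p = 0.00209). BCL2 rose from 5.37 ± 1.79 to 12.0 ± 0.906 CPM (log2 1.16, SE 0.23, edgeR adjusted p = 0.00333). BCL2L1, which encodes BCL-XL, stood at 83.8 ± 2.59 and 96.2 ± 20.6 CPM and did not pass (log2 -0.20, SE 0.16, edgeR adjusted p = 0.328). Of the exonic bases of BCL2L1 41.3% are shared with the antisense gene ABALON, so its counts are less certain. Of the 3 effector genes BAX fell 2.33-fold, from 163 ± 53.4 to 69.9 ± 2.75 CPM (log2 -1.22, SE 0.21, edgeR adjusted p = 0.0017; -0.91 without untreated replicate 1), BOK did not pass and BAK1 was listed at 0. Among 5 other genes whose proteins carry a BH3 motif 2 rose and 3 did not pass (40% called). Of these HUWE1, a ubiquitin ligase for MCL1, had the smallest p (log2 1.09, edgeR adjusted p = 0.000831).

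**Figure D4:**
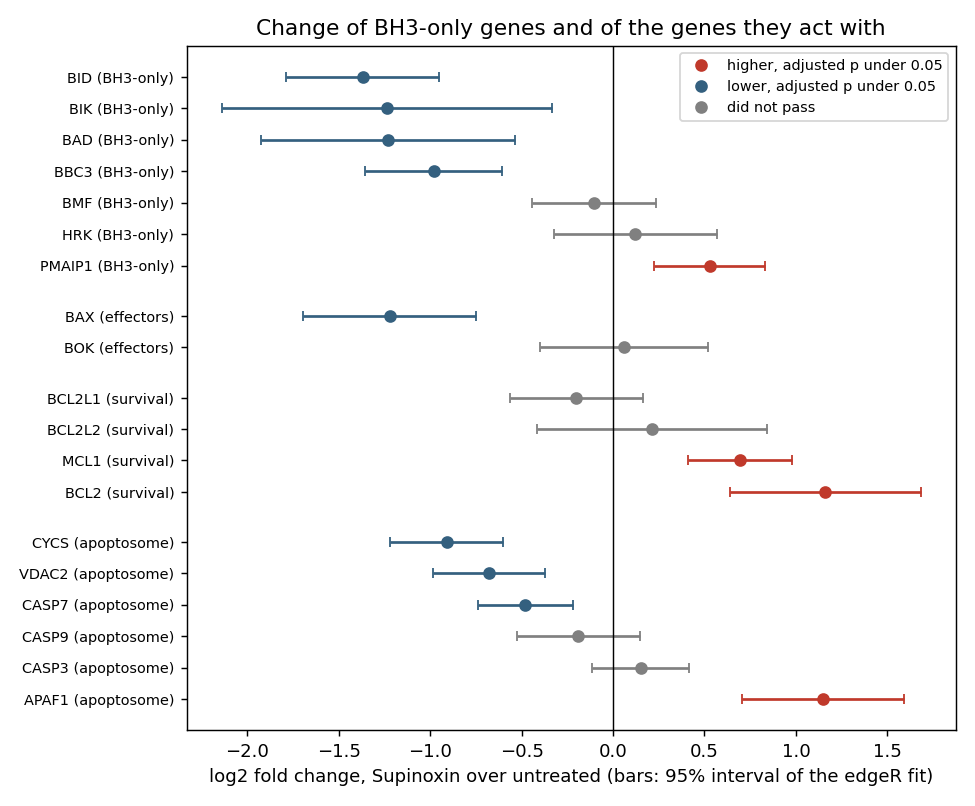
Log2 fold change, Supinoxin over untreated, with the 95% interval of the edgeR fit as bars, for BH3-only, effector, survival and 6 apoptosome genes, coloured by whether the adjusted p passed 0.05. BID, BIK, BAD, BBC3 and BAX lie below 0 with their whole interval, and PMAIP1, MCL1, BCL2 and APAF1 lie above.

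For 6 pairs of a BH3-only gene and a known partner, the 2 levels per kb were set against each other within a library. The log2 ratio of PMAIP1 to MCL1 was -1.62, -1.75 and -1.76 with Supinoxin and -1.60, -1.57 and -1.47 without, so although both genes rose the ratio was lower by a mean difference of -0.17. The ratio of BID to BAX, both of which fell, differed by -0.16 (means -1.72 ± 0.0489 and -1.56 ± 0.0756, SD, n = 3 each). The difference was -1.67 for BBC3 to MCL1, -1.30 for BMF to BCL2, -0.93 for BAD to BCL2L1 and 0.31 for HRK to BCL2L1. Without untreated replicate 1 the difference for BAD to BCL2L1 was -0.69 and that for BMF to BCL2 was -1.08. The two-sided exact permutation p was 0.1 for each ratio, also when adjusted over the 6, which is the smallest value that 3 libraries against 3 allow and the one that any ratio with groups apart must have. The groups were apart in these ratios as they were for 62.4% of single genes, and the share over other pairs of genes was not computed. A ratio within a library shows unequal change of 2 transcripts and does not depend on the scaling between libraries. It does not remove trends with length and GC content, and the ratios were not computed with those trends removed. GC content was 69.7% for BBC3 and 44.7% for MCL1, and the log2 fold change of BBC3 went from -0.98 to -0.41 with that offset.

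Regulators of the BH3-only genes and proteins were counted by list, beside 48.6% called among all tested genes (23.4% higher and 25.2% lower). Of 10 transcription factors known to act on BH3-only genes 4 rose and 3 fell (70% called, median log2 0.18). TP63, a transcription factor of epithelial basal cells, fell by 2.07 and the cell cycle factor E2F1 by 1.40 on the log2 scale (edgeR adjusted p = 0.000295 and 0.000809), and the value of E2F1 was -1.15 without untreated replicate 1. FOXO3, a known inducer of BCL2L11 and BBC3 named after its value was seen, rose by 0.89 on that scale (edgeR adjusted p = 0.000908). Of 19 enzymes and partners that act on BH3-only proteins 2 rose and 6 fell (42.1% called, median log2 0.11). The 14-3-3 gene YWHAQ fell by 0.78 and PIM1, a kinase that phosphorylates BAD, rose by 0.56 on the log2 scale (edgeR adjusted p = 0.00102 and 0.0072). Of 8 listed FOXO targets other than the members 7 were matched and 6 tested. Of those tested 4 did not pass and 2 rose (33.3% called), namely BCL6 by 2.16 and IRS2 by 0.74 on the log2 scale (edgeR adjusted p = 0.000855 and 0.00655).

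Of 7 tested targets of the stress factors ATF4 and CHOP other than the members, 4 rose and 3 did not pass (median log2 1.06). The share called was 57.1%, beside 48.6% of all tested genes in either direction and 23.4% higher. The genes of the factors themselves, named after their values were seen, did not pass, with log2 fold changes of 0.17 for ATF4 and 0.20 for DDIT3, which encodes CHOP (edgeR adjusted p = 0.277 and 0.58). Targets that rose included DDIT4 by 1.11 and CHAC1 by 1.22 on the log2 scale (edgeR adjusted p = 0.000466 and 0.00186).

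Downstream of the BH3-only proteins, 1 of 10 tested genes of the apoptosome and its caspases rose and 3 fell (median log2 -0.12). CYCS, which encodes cytochrome c, fell from 335 ± 43.1 to 178 ± 4.30 CPM (log2 -0.91, edgeR adjusted p = 0.000967). APAF1, the scaffold that cytochrome c activates, rose from 13.9 ± 3.73 to 30.7 ± 1.86 CPM (log2 1.15, edgeR adjusted p = 0.00173). Over all listed genes of the pathway other than the members, 19 of 78 tested rose and 18 fell, which is 47.4% called beside the 48.6% of all tested genes.

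The genes nearest to BID and to BBC3, the members with the smallest p, were found by Euclidean distance of centred log2 CPM over the 6 libraries among 12546 protein-coding genes. Nearest to BID were RPL10 (distance 0.102), RFC2 (0.114) and CUEDC2 (0.116), beside a median distance of 1.82, with log2 fold changes of -1.35, -1.35 and -1.36. Nearest to BBC3 were MORN2 (0.133), ZMYND19 (0.145) and CDK4 (0.148), beside a median of 1.38, with log2 fold changes of -1.03, -1.06 and -1.01. RPL10 encodes a ribosomal protein, RFC2 a subunit of the clamp loader of DNA replication and CDK4 a kinase of the G1 phase. BID and RPL10 shared untreated replicate 1 as their highest library, and leaving it out gave log2 fold changes of -1.11 and -1.10. RPL10 was picked by its distance over these same libraries, so this likeness follows from the choice.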

How the data were processed

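The deposited file holds raw whole-number counts for each Ensembl gene in each library; the authors applied no normalization to it. The submitters' processing notes name the build GRCh38 and the tools Trim Galore 0.4.4, fastp and STAR, besides featureCounts, DESeq2 and edgeR, without roles. They do not say which annotation was used, whether counting was stranded or what became of multi-mapped reads. A column name with SUP marks a Supinoxin library. The other columns carry WT and were read as untreated. Of 60605 identifiers 60463 were matched to GENCODE 44 for symbol, position, exonic length and GC content.

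Counts were filtered with filterByExpr, which left 15947 genes, scaled with TMM (trimmed mean of M values) and compared with the two-sided edgeR 4.0.16 quasi-likelihood test (robust fit, treatment as the single term, R 4.3.3), with Benjamini-Hochberg adjustment over all tested genes at 0.05. Replicates varied with a biological coefficient of variation of 17.0%. Intervals are 95% intervals of the fit. Alternatives were library size alone, DESeq2's size factors in edgeR, DESeq2 1.42.0, no filter, a filter of 1 CPM in 3 libraries, each library left out, the replicate number as a block, and an offset from smooth trends on length and GC content (mgcv 1.9.3).

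The members, lists and tests were chosen with earlier results of these data known. Named genes were all members, the 2 genes of smallest p in each list (1 in lists with under 6 tested), further core genes and the nearest genes to 2 members, with exceptions stated where they occur; some genes and 1 gene list that the rule covers are not reported here. Of 90 listed genes of the pathway 89 were matched. Coding sequences came from GENCODE 44 and promoter windows from RefSeq (GRCh38.p14). Protein sequences were not used here.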

Additional observations from a re-analysis of the deposited data

How the results depend on the processing

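Of the 7 tested members, BID and BAD passed in the same direction under all 13 alternatives. The number of members that were lower was 4. It was 3 with library size alone and with the filter of 1 CPM, and 2 with the length and GC offset. It ran from 3 to 4, and the number that were higher from 0 to 1, when each library was left out. Over all genes these fits called 2556 to 4334 higher and 2789 to 4477 lower. Sign changes without a call were BMF at 0.035 with library size alone and HRK at -0.063 with the length and GC offset. When each library was left out BMF ran from -0.21 to 0.049 and HRK from -0.010 to 0.25. Scaling by library size shifted the median gene by 0.14 (log2). BIK did not enter the filter of 1 CPM. The main fit did not pair libraries by replicate number. Deviations of same-numbered libraries correlated at -0.13, -0.04 and -0.03, and those of differently numbered libraries at -0.11 to 0.14. Such weak values cannot settle whether the libraries were paired. With the replicate block 4 members were lower and 1 higher, with 3650 genes lower and 3588 higher. Depth limits BIK most, at 9 to 46 counts per library.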
